A study of Mus musculus with 10 samples.

Results

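The microtubule motor genes described here are the kinesins (symbols starting with Kif and a number, or with Kifc), the cytoplasmic dynein subunits (Dync), the LC8 dynein light chains (Dynll) and the dynactin subunits (Dctn). They were chosen by symbol in the platform annotation, without Kif20a and Kif23, and number 54 of the 18193 genes that have a probe set of their own on the array: 39 kinesins, 9 dynein genes and 6 dynactin genes. Kinesins and dynein turn the energy of ATP into steps along microtubules. Most kinesins walk towards the plus end and carry cargo or slide and shorten spindle microtubules, whereas cytoplasmic dynein, helped by its activator dynactin, walks towards the minus end. In the oocyte, which has no centrioles, such motors gather microtubules into a bipolar meiotic spindle and hold the chromosomes at its equator.

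RNA was measured on 1-colour arrays of 45101 probe sets in oocytes of B6D2F1 female mice (a C57BL/6 by DBA/2 hybrid), matured in vivo after equine and then human chorionic gonadotropin (5 IU, 48 h later) and stripped of cumulus cells with hyaluronidase. All samples were MII oocytes, which wait in the metaphase of meiosis II for fertilisation, or parts of them, and no group carried a mutation or a drug. The spindle-chromosome complex (SCC, 3 arrays) was lifted out by microsurgery, the cytoplast (4 arrays) was the enucleated remainder, and the intact MII oocyte (3 arrays) held both. The design asks whether maternal transcripts are enriched at the spindle. The sample titles call the arrays biological replicates. No label names the animals or pools behind them, so how far the spread behind the p-values covers differences between animals is not known. RNA went through 2 rounds of amplification.

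Array medians lay between 15.6 and 16.6 (linear intensity), and precision is limited by how few arrays there are. Above background means here brighter than 95% of 61 probe sets of genes of other tissues, such as Alb and Ins2, on the same array (a level of 81.3 to 148.7). The level was 97.2, 139.0 and 148.7 on SCC replicates 1, 2 and 3. It was 90.0 to 105.4 in the cytoplast and 81.3 to 108.4 in the MII oocyte. The same intensity can thus be above background on a cytoplast array and not on an SCC array. Of 13 oocyte markers measured, 10 were above background on all arrays, among them Zp1, Zp2, Zp3 and Gdf9. Of 18 cumulus and granulosa cell markers none was above it on all arrays and 15 were above it on none, Fshr, Has2 and Ptx3 among these. The exceptions were Foxl2, Kitl and Nr5a2. The summed intensity of the cumulus list was 662.7 to 828.4 in the SCC, 608.1 to 735.5 in the cytoplast and 631.0 to 744.4 in the MII oocyte. Bright probe sets as a whole stood higher in the SCC: the 3944 with a mean log2 intensity above 8 had a median log2 difference from the cytoplast of 0.28, against 0.02 after cyclic loess scaling and -0.00016 after quantile normalization. The 3′ minus 5′ difference of the beta-actin control probe sets, a measure of how completely the RNA was copied, was 3.27 to 3.65 (log2) in the SCC and 3.66 to 5.29 in the cytoplast. In the MII oocyte it was 3.3 to 4.4. That of the Gapdh control overlapped between groups, at 2.32 to 3.23 in the SCC and 2.57 to 3.92 in the cytoplast. The part of the bright shift and of these control differences in the results below was not tested beyond those scalings. The values are shares of the RNA on an array, so more transcript at the spindle and less of other RNA there cannot be told apart.

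Of the 54 genes, 17 were above background on all arrays, 8 on some and 29 on none, and 47 passed the filter on dim probe sets and were tested. Dctn5, Dync1i1, Kif12, Kif14, Kif28, Kif2b and Kifc5b did not pass it. Kif5c and Kif2a were higher in the SCC when set against the cytoplast, and none of the 47 was lower (limma, adjusted p below 0.05 over all probe sets). Over all 23737 probe sets tested, 6.74% were called higher and 0.274% lower, so 2 of 47 is not above that background. At an unadjusted p below 0.05 there were 14 of 47, beside 20.2% of all probe sets. The median log2 difference of the 47 was 0.006 beside 0.01 over all probe sets, with 24 above and 23 below 0. The SCC and cytoplast arrays did not overlap for 7 of the 47 in the higher direction and 4 in the lower, where 13.9% and 5.89% of all probe sets did so. The 7 were Dctn3, Dync1h1, Kif1b, Kif26b, Kif2a, Kif5c and Kifc1, and the 4 were Kif17, Kif18b, Kif3c and Kif7.

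**Figure D1:**
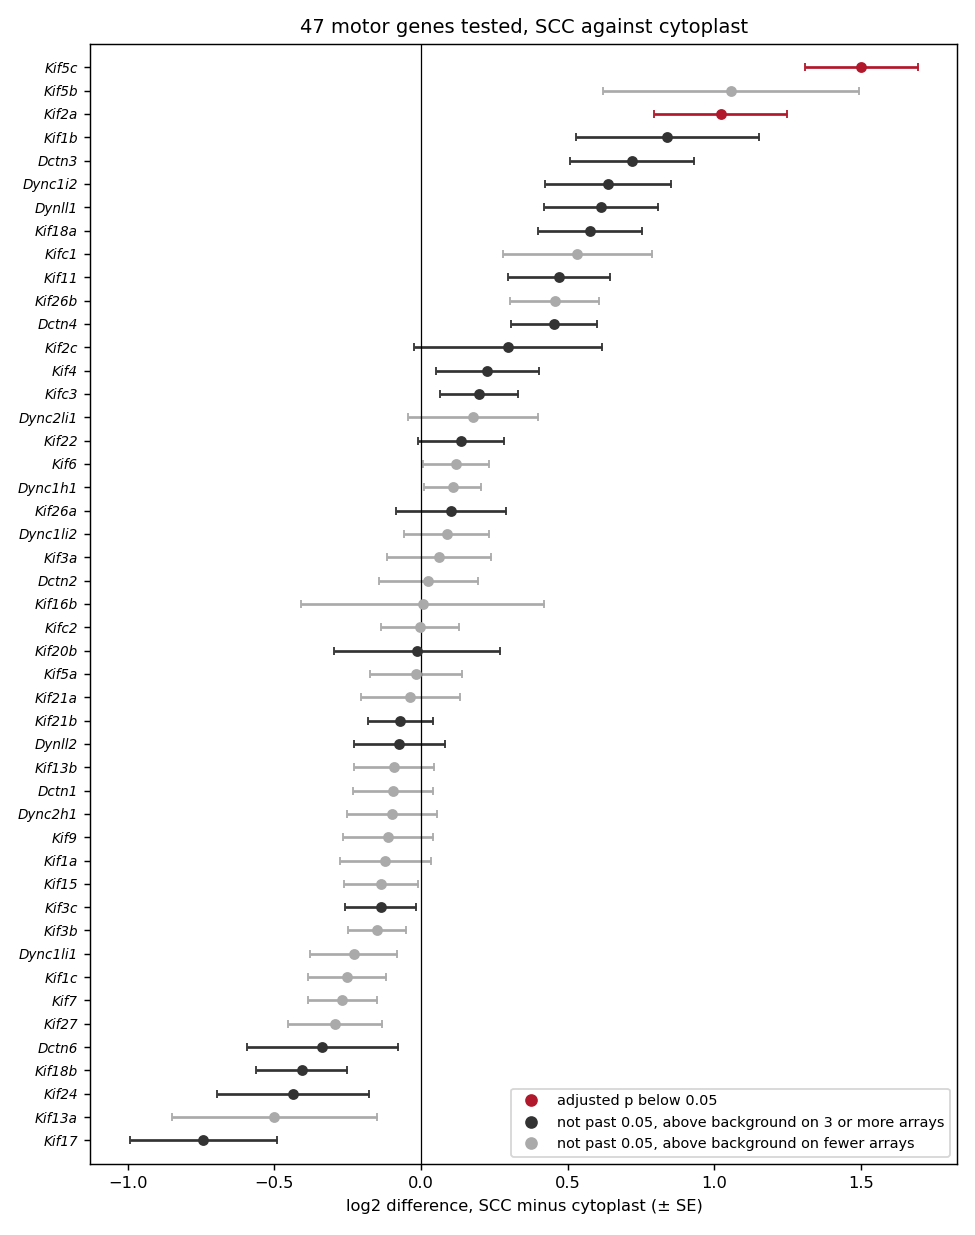
Log2 difference between the SCC and the cytoplast (x axis, ± SE of the limma fit) for each of the 47 motor genes tested, ordered by size. Kif5c (1.50) and Kif2a (1.02) in red passed the threshold, Kif5b (1.06) lay between them with a wide error, and Kif17 (-0.74) had the lowest value.

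Kif5c encodes a heavy chain of kinesin-1, the plus-end motor of organelle and RNA transport, and is best known from neurons. Its intensity was 984.4, 1115 and 1188 on the SCC arrays, 421.8, 354.9, 476.4 and 310.3 on the cytoplast arrays and 335.1, 575.9 and 462.5 on the MII oocyte arrays. Every SCC array lay above every other array, and all 10 arrays were above background. The means were 1096 ± 103.3 (SD, n = 3) in the SCC, 390.8 ± 73.2 (SD, n = 4) in the cytoplast and 457.8 ± 120.5 (SD, n = 3) in the MII oocyte. The SCC stood 2.83-fold above the cytoplast (log2 1.50, SE 0.19, adjusted p = 0.00373). This probe set passed under all 18 other settings of scaling, filter, model and array choice (log2 1.20 to 1.60, adjusted p 0.00107 to 0.0309). Against the MII oocyte it was 2.45-fold and missed the threshold (log2 1.29, SE 0.21, adjusted p = 0.0574). In that comparison it passed without cytoplast replicate 4 or without MII oocyte replicate 3. It also passed there with the hybridisation control level as a covariate or with the replicate number as a block.

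The other kinesin-1 heavy chains could be read less well. Kif5b, the widely expressed one (named after its values were seen), was at 93.3, 112 and 185.2 in the SCC, 48.8, 73.8, 98.4 and 36.4 in the cytoplast and 40.2, 136.7 and 46.5 in the MII oocyte. Its groups overlapped, and it was above background on 1 SCC array, no cytoplast array and 1 MII oocyte array. Its log2 difference of 1.06 (SE 0.44) did not pass (adjusted p = 0.193). A dimmer Kif5b probe set, above background nowhere, was higher in the SCC (log2 0.66, adjusted p = 0.0236), and 2 other tested ones were at -0.04 and 0.29 and did not pass. Kif5a was above background on no array.

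Kif2a, a kinesin-13 that does not walk but strips tubulin from microtubule ends, chiefly at spindle poles, was the other called gene. It was at 824.9, 1248 and 972 in the SCC, 460.6, 484, 662.1 and 399.1 in the cytoplast and 436.3, 796.2 and 552.3 in the MII oocyte. The lowest SCC array stood above the highest array of both other groups, with MII oocyte replicate 3 closest. The means of 1015 ± 214.7 (SD, n = 3) and 501.5 ± 112.9 (SD, n = 4) gave a 2.03-fold difference between SCC and cytoplast (log2 1.02, SE 0.23, adjusted p = 0.0222). The call was lost after cyclic loess (log2 0.77, adjusted p = 0.135) and quantile normalization (log2 0.70, adjusted p = 0.173), without SCC replicate 2 (0.119) or 3 (0.0928) and without cytoplast replicate 1 (0.0706) or 2 (0.0646). Against the MII oocyte, Kif2a did not pass (log2 0.79, SE 0.24, adjusted p = 0.205), except when MII oocyte replicate 3 was left out.

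**Figure D2:**
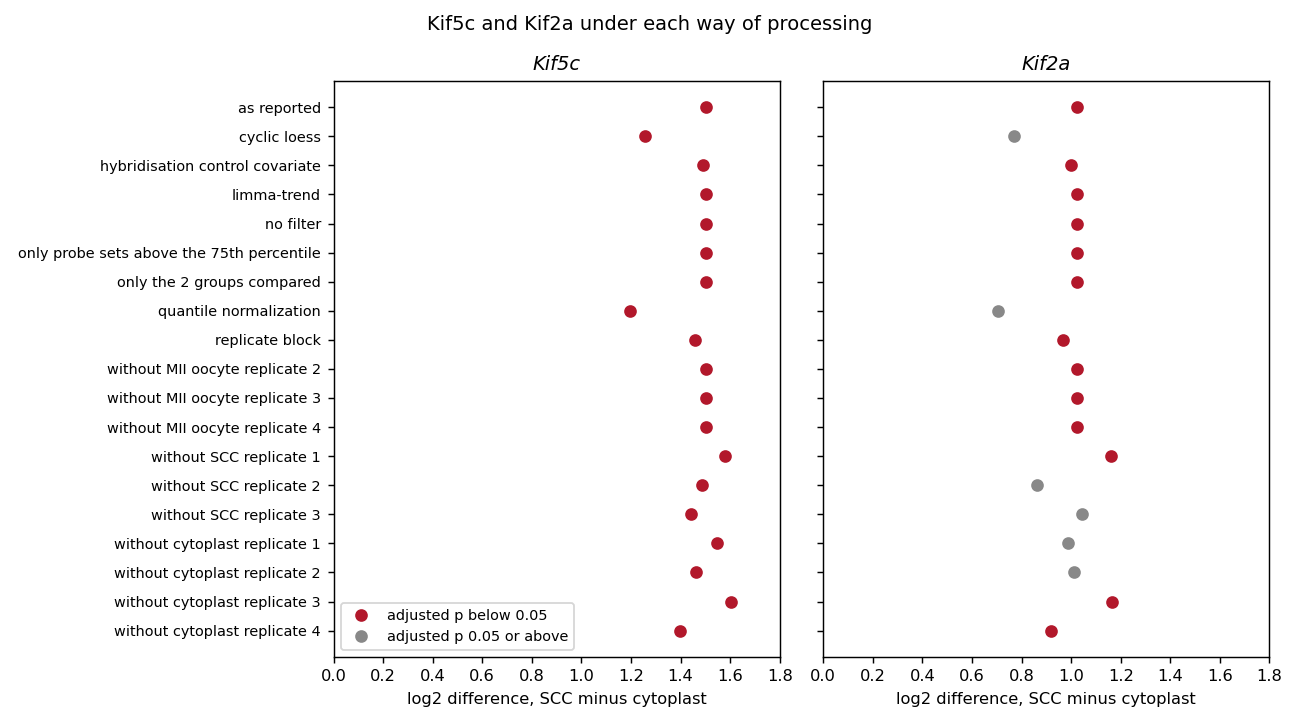
Log2 difference between the SCC and the cytoplast (x axis) of Kif5c and Kif2a under the reported setting and 18 others (y axis), red where the adjusted p is below 0.05. Kif5c passed in all of them (1.20 to 1.60), Kif2a in 12 of the 18 others (0.70 to 1.16).

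**Figure D3:**
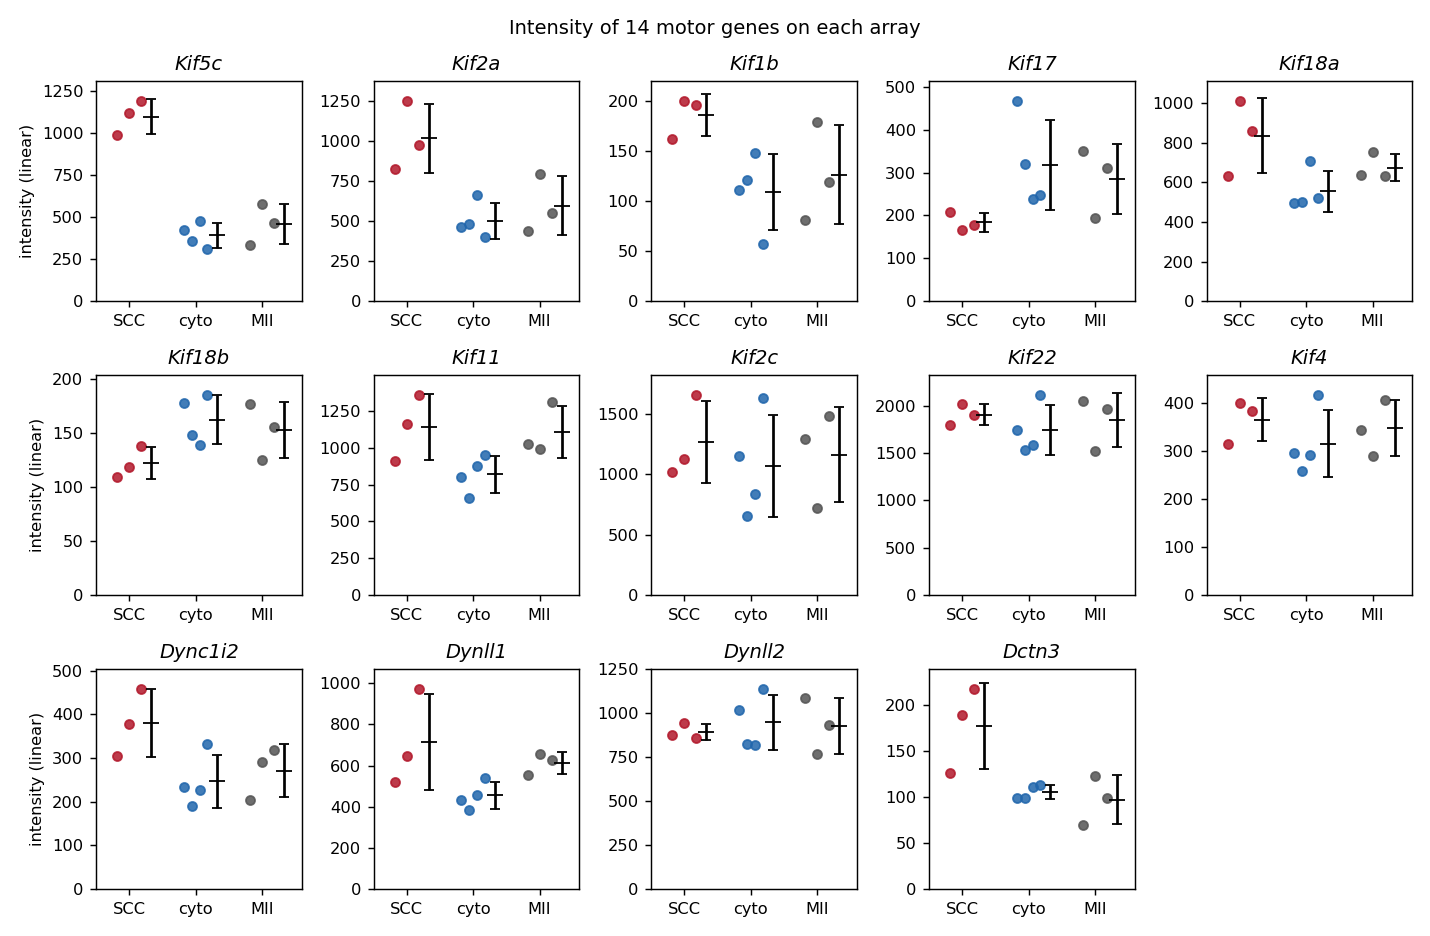
Linear intensity (y axis, starting at 0) on each array for 14 motor genes in the SCC, the cytoplast (cyto) and the MII oocyte (MII), with points for arrays and bars for the mean ± SD. The SCC arrays of Kif5c (984.4 to 1188) and Kif2a (824.9 to 1248) lie above all other arrays, while those of Kif2c and Kif22 lie among them.

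Among the motor genes chosen by symbol that are best known for spindle work, Kif2a alone was called. Cenpe, a kinetochore kinesin that the symbols miss, was also called higher (adjusted p = 0.00554) and is given with the partners below. On a list of 23 spindle motors, 20 were tested, 1 was higher and none lower (6.74% and 0.274% of all probe sets). The median log2 difference was 0.12, which fell to 0.03 after cyclic loess and 0.002 after quantile normalization. After either scaling Kif2a was not called, and Kif18b was called lower instead. Kif18a, the kinesin-8 that damps chromosome movements at the plate, was at 633, 1009 and 858.9 in the SCC and 495.6, 498.2, 708.6 and 518.5 in the cytoplast. The groups overlapped through SCC replicate 1 and cytoplast replicate 3, and the log2 difference of 0.58 (SE 0.18) missed the threshold (adjusted p = 0.0772). It passed in 3 of 18 other settings, 2 of them without one of these arrays (adjusted p 0.0239 and 0.0369), whose removal widens the gap. It did not pass after cyclic loess (0.33, adjusted p = 0.363) or quantile normalization (0.26, adjusted p = 0.486). Nor did it pass without SCC replicate 2 (adjusted p = 0.309) or 3 (adjusted p = 0.255). In the MII oocyte Kif18a was at 638.9, 750.3 and 631.8.

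Kif11 (Eg5), the kinesin-5 that pushes spindle poles apart, was at 910.4, 1159 and 1359 in the SCC and 798.2, 657.8, 878.6 and 950.2 in the cytoplast. The lowest SCC array lay below cytoplast replicate 4, and the log2 difference was 0.47 (SE 0.17, adjusted p = 0.141). The MII oocyte stood at 1024, 990.9 and 1309, every array above every cytoplast array and all within the range of the SCC (SCC minus MII oocyte, log2 0.04, adjusted p = 0.96). The cytoplast minus MII oocyte difference of -0.43 (SE 0.17) did not pass (adjusted p = 0.926).

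The chromokinesins, which bind chromosome arms, had overlapping groups. Kif22 was at 1799, 2017 and 1900 in the SCC and 1743, 1533, 1589 and 2116 in the cytoplast (log2 difference 0.14, SE 0.15, adjusted p = 0.682). Kif4 was at 313, 398.3 and 382.1 in the SCC and 294.9, 257, 291.6 and 415.9 in the cytoplast (log2 difference 0.23, SE 0.18, adjusted p = 0.544). The sign turned for Kif22 after cyclic loess and quantile normalization and for Kif4 after quantile normalization. For both, cytoplast replicate 4 was the highest of the 7 arrays.

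Kif2c (MCAK), the centromere kinesin-13 that frees wrongly attached microtubules, varied more within the groups than between them. It was at 1019, 1124 and 1654 in the SCC, 1148, 656.5, 839.1 and 1624 in the cytoplast and 1286, 719.1 and 1479 in the MII oocyte (SCC minus cytoplast, log2 0.30, SE 0.32, adjusted p = 0.685). Kif20b, a kinesin of late division (named after its values were seen), differed between SCC and cytoplast by -0.01 on the log2 scale (SE 0.28, adjusted p = 0.989) and ranged from 1317 to 2602 in the cytoplast alone. For both genes the 4 highest arrays were SCC replicate 3, cytoplast replicate 4 and MII oocyte replicates 2 and 4. The controls spiked in at hybridisation were brightest on the same arrays (mean log2 11.1 to 11.3, against 9.87 to 10.7 on the others). With that control level as a covariate, the difference between SCC and cytoplast was 0.34 for Kif2c (SE 0.16, adjusted p = 0.203) and 0.02 for Kif20b (SE 0.13, adjusted p = 0.941), and neither passed.

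Kif18b, the other kinesin-8, leaned the opposite way from Kif18a. It was at 109.7, 118.8 and 138.3 in the SCC, 177.7, 147.9, 138.8 and 185.3 in the cytoplast and 176.9, 125.3 and 156 in the MII oocyte. The SCC and cytoplast arrays did not overlap, though SCC replicate 3 and cytoplast replicate 3 lay side by side. Of the 3 SCC arrays only replicate 1, the dimmest for this gene, was above background. Its background level was 97.2, against 139.0 and 148.7 on SCC replicates 2 and 3. The log2 difference of -0.41 (SE 0.16) did not pass (adjusted p = 0.157), but it passed after cyclic loess (-0.56, adjusted p = 0.0367), after quantile normalization (-0.60, adjusted p = 0.0392) and with the hybridisation control level as a covariate (-0.39, adjusted p = 0.032). Kif24, a kinesin-13 of centrioles, was at 172.3, 149 and 190.3 in the SCC and 186.2 to 280.8 in the cytoplast (adjusted p = 0.399). Kif15, Kif14 and the minus-end kinesin Kifc1 were above background on no array. Kifc5b is a near copy of Kifc1, so the reading of both is uncertain.

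Among 19 transport kinesins, all tested, 1 was higher in the SCC (Kif5c) and none lower (6.74% and 0.274% of all probe sets), with a median log2 difference of -0.07. Kif17, a kinesin-2 of dendrites and cilia, had the lowest difference of all 47 motor genes. It was at 208.6, 165 and 178.7 in the SCC, 466.4, 318.7, 238.4 and 248.7 in the cytoplast and 351.1, 193.1 and 310.8 in the MII oocyte. The SCC lay below every cytoplast array and overlapped the MII oocyte through its replicate 3, and the log2 difference of -0.74 (SE 0.25) did not pass (adjusted p = 0.107). It passed in 2 of 18 other settings, without MII oocyte replicate 3 (adjusted p = 0.0467) and with the replicate number as a block (adjusted p = 0.0432). The other tested probe sets of Kif17 were at -0.20 (adjusted p = 0.535) and -0.34 (adjusted p = 0.374). Kif1b, a kinesin-3 of mitochondria and synaptic vesicle precursors, was at 162.3, 199.8 and 196.2 in the SCC, 111.4, 120.7, 148.1 and 57.6 in the cytoplast and 81.0, 179.2 and 118.7 in the MII oocyte. Its SCC and cytoplast arrays did not overlap, and the log2 difference of 0.84 (SE 0.31) did not pass (adjusted p = 0.145). Of its 6 other tested probe sets, all above background nowhere, 2 were higher in the SCC (log2 1.03, adjusted p = 0.0133, and 0.46, adjusted p = 0.0483) and the other 4 did not pass (-0.22 to 0.07). Kif3a, Kif3b and Kif3c, the other kinesin-2 chains, had differences of 0.06, -0.15 and -0.14, none of which passed (adjusted p = 0.901, 0.464 and 0.606). Of these, Kif3b was above background on no array and Kif3a on 2. Kif3b is also on the list of spindle motors.

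Read from their brightest probe sets, the dynein genes gave no call, with 8 of 9 tested and a median log2 difference of 0.10. Dync1i2, the intermediate chain that ties dynein to dynactin, was at 304.3, 377.9 and 458.8 in the SCC, 234.3, 189.7, 227.7 and 333.1 in the cytoplast and 203.3, 291.4 and 318 in the MII oocyte. The groups overlapped only through cytoplast replicate 4. The log2 difference of 0.64 (SE 0.22) did not pass (adjusted p = 0.108, or 0.0374 without that array). It passed in 3 of 18 other settings. After cyclic loess it was 0.42 (adjusted p = 0.247) and after quantile normalization 0.36 (adjusted p = 0.338). Dynll1 and Dynll2 are near-identical small light chains that dimerise many proteins besides dynein. Dynll1 was at 520, 648.2 and 973.8 in the SCC, 434.7, 384.8, 458.3 and 540 in the cytoplast and 552.7, 654.6 and 625.5 in the MII oocyte (SCC minus cytoplast, log2 0.61, SE 0.19, adjusted p = 0.0858). Its next 2 probe sets in brightness did pass (adjusted p = 0.0235 and 0.0263), as described with the other probe sets below. Dynll2 was at 874.9, 942.8 and 858.5 in the SCC and 1014, 820.1, 817.2 and 1137 in the cytoplast (log2 difference -0.07, SE 0.15, adjusted p = 0.857). Its sign turned without cytoplast replicate 4. Whether the 2 genes differ from each other was not tested. The motor subunit Dync1h1 was above background on no array (16.7 to 19.2 over all arrays), as were both light intermediate chains and both dynein-2 genes.

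Of the dynactin subunits 5 of 6 were tested and none passed. Dctn3, a small subunit of the shoulder, had the lowest adjusted p of the motor genes that missed the threshold between SCC and cytoplast. It was at 126, 189 and 218.1 in the SCC, 99.0, 98.8, 110.8 and 112.8 in the cytoplast and 69.4, 123 and 98.7 in the MII oocyte. The SCC lay above all other arrays, and the log2 difference from the cytoplast was 0.72 (SE 0.21, adjusted p = 0.0657). It passed in 7 of 18 other settings, for example without SCC replicate 1, the lowest SCC array (adjusted p = 0.0191). It did not pass after cyclic loess (0.59, adjusted p = 0.147) or quantile normalization (0.52, adjusted p = 0.177). Dctn4 (log2 0.46, adjusted p = 0.0898) and Dctn6 (-0.34, adjusted p = 0.533), both of the pointed-end complex, did not pass, and Dctn1, the large subunit that grips microtubules, was above background on 2 arrays (-0.10, adjusted p = 0.777).

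Genes had between 1 and 7 probe sets, and these did not always move alike. The bright Kif5c probe set was the only one of 4 above background on any array. The next 2 were at a log2 difference of 0.04 (adjusted p = 0.897) and 0.61 (adjusted p = 0.138). The next probe set of Kif2a, also above background nowhere, was at 0.65 (adjusted p = 0.134). Its dimmer tested probe sets were at 0.07 (adjusted p = 0.893) and 0.19 (adjusted p = 0.355). For Dynll1 the next 2 probe sets, both above background on all arrays, were higher in the SCC (log2 0.89, adjusted p = 0.0235, and 0.96, adjusted p = 0.0263), while the brightest missed the threshold. The second probe set was at 421.6, 581.5 and 814 in the SCC and 310, 268.5, 354.8 and 332.3 in the cytoplast, with no overlap. A dim Kif22 probe set was higher in the SCC (log2 0.75, adjusted p = 0.0067; 71.8 to 83.3 against 40.5 to 52.2), below background throughout. The second probe sets of Kif11 and Kif1b had the opposite sign from the first (-0.13 and -0.16), and neither passed, while 2 dimmer probe sets of Kif1b were higher in the SCC, as given above. The bright probe sets of Kif22 and Kif2c carry the suffix for possible cross-hybridisation, and those of Kif17 and Dynll2 the suffix for several transcripts, so these readings are less certain.

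**Figure D4:**
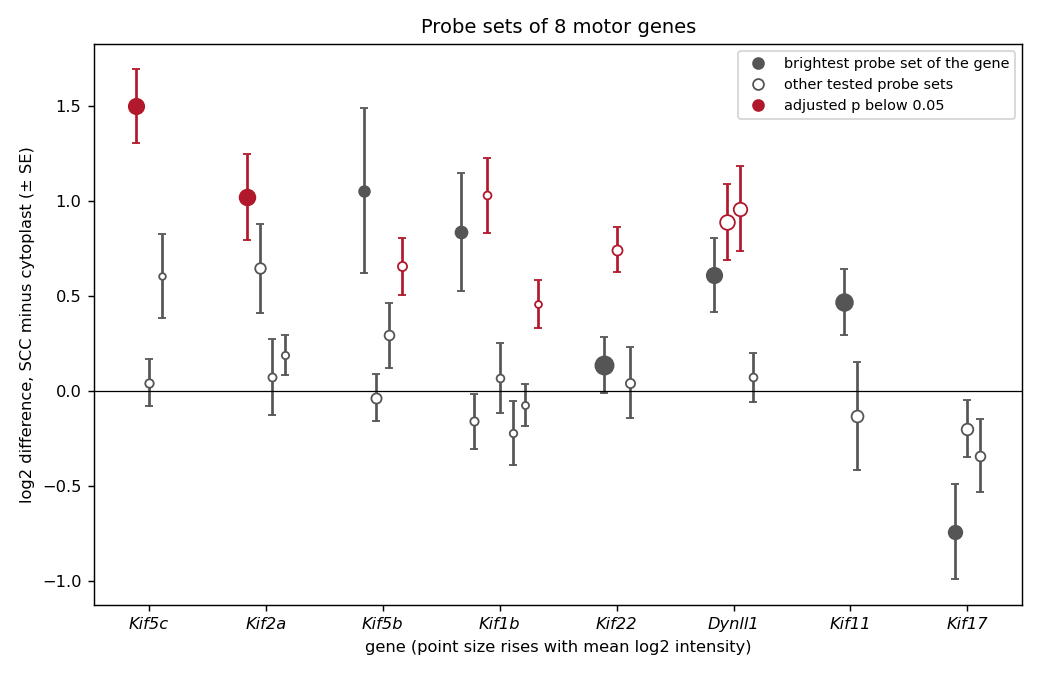
Log2 difference between the SCC and the cytoplast (y axis, ± SE) of each tested probe set of 8 motor genes, filled for the brightest probe set of the gene, red for an adjusted p below 0.05. For Dynll1 the next 2 in brightness (0.89 and 0.96) passed and the first (0.61) did not, and for Kif5c and Kif2a only the brightest passed.

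Against the intact oocyte, limma called none of the 47 genes in the SCC (7 had an unadjusted p below 0.05, as had 12.1% of all probe sets), where 0.0421% of all probe sets were higher and 0.0% lower. The arrays did not overlap for 4 genes in the higher direction (Kif5c, Kif2a, Dctn3 and the dim Kif26b) and 1 in the lower (Kif3c), beside 8.71% and 5.34% of all probe sets. Between the cytoplast and the intact oocyte limma called none either (2 with an unadjusted p below 0.05, as had 4.44% of all probe sets; adjusted calls were 0.0% of all probe sets in each direction). There, 3 genes did not overlap in the higher direction, all below background, and 2 in the lower, Kif11 and Dynll1 (1.89% and 3.83% of all probe sets). The comparisons share arrays and are not independent.

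The bright motor genes stood where bright probe sets as a whole stood. The 13 with a mean log2 intensity above 8 had a median log2 difference between SCC and cytoplast of 0.30, next to 0.28 for all bright probe sets, and 10 of 13 were above 0. After cyclic loess the median was 0.03 and after quantile normalization 0.007. The other 34 were at -0.05.

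Partners of the motors that the symbols miss were read from a list of 46 genes, of which 32 were tested. The list was drawn up with earlier results of these data known, so its counts cannot test whether partners differ from other genes. In the SCC, 7 were higher than in cytoplasts and none lower (6.74% and 0.274% of all probe sets), with a median log2 difference of 0.26. After cyclic loess 4 of the 7 passed (median 0.07) and after quantile normalization 2, Ankrd26 and Cenpe (median 0.04). The count fell to 3 without SCC replicate 2 or without SCC replicate 3 (Ankrd26, Capza2 and Cenpe both times), and to 5 without cytoplast replicate 1 or 2, where Dynlt3 and Cep55 were lost. Cenpe, the kinesin-7 of the kinetochore, was at 4050, 5556 and 5671 in the SCC, 2370 to 2771 in the cytoplast and 2714 to 3206 in the MII oocyte (1.91-fold over the cytoplast, log2 0.93, SE 0.14, adjusted p = 0.00554). Its lowest SCC array stood above every other array. Hook1, which links dynein to cargo, was at 643.4, 904.9 and 968.4 in the SCC and 411.8 to 484.1 in the cytoplast (1.88-fold, log2 0.91, SE 0.15, adjusted p = 0.00886). Dynlt3, a dynein light chain of the Tctex type, was at 2346, 2949 and 2762 in the SCC and 1459 to 2034 in the cytoplast (1.61-fold, log2 0.69, adjusted p = 0.0176). Capza2, part of the actin capping protein that also ends the dynactin filament, was at 1431 to 1814 and 790.6 to 1008 (1.77-fold, adjusted p = 0.00674). Ankrd26, a protein of centriole appendages, was 2.29-fold higher (adjusted p = 0.00373), and Spdl1, which brings dynein to kinetochores, 1.74-fold (adjusted p = 0.0128). Cep55, a protein of the midbody and only loosely a motor partner, was the seventh (1.50-fold, adjusted p = 0.0223). The dynein regulator Pafah1b1 (Lis1) did not pass (log2 0.34, adjusted p = 0.263), nor did Numa1, which anchors dynein at spindle poles (0.43, adjusted p = 0.209).

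Promoter sequence was read for a motif that the symbols and array values did not use. Genes switched on for cell division often carry the cell cycle genes homology region, searched here as TTTGAA on both strands of the window from 250 bases before to 50 after the gene's start (RefSeq, GRCm38.p6). Of the 54 genes, 42 had a window. The letters were found in 10 of 15 spindle kinesins: Kif11, Kif14, Kif15, Kif18b, Kif20b, Kif22, Kif2c, Kif4, Kifc1 and its near copy Kifc5b. They were found in 2 of 13 transport kinesins (Kif1a and Kif27), in 1 of 10 dynein and dynactin genes (Dctn1), and in 17.9% of all 32851 windows (20.2% of 27025 genes). Of all 42 motor genes with a window, 14 held them (33.3%), among them Kif26b, which is on neither kinesin list. The other 5 spindle kinesins, Kif18a, Kif2a, Kif2b, Kif24 and Kif3b, did not hold them, nor did Kif5c. Kif3b was also counted among the transport kinesins, so the lists overlap. The stretches from 70 bases before to 30 after the start are shown for 6 of the 10, with the match in capitals, and for the 2 called genes, so that windows with and without the letters can be read side by side. Adjoining matches in Kif20b follow each other directly. A match describes the letters only.
Kif11 (chr19:37376312-37376411, plus strand): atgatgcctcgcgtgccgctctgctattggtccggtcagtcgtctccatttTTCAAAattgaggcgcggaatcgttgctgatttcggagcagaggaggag
Kif22 (chr7:127042391-127042490, minus strand): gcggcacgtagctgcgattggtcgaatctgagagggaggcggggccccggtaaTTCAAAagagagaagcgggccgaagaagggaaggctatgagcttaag
Kif4 (chrX:100625995-100626094, plus strand): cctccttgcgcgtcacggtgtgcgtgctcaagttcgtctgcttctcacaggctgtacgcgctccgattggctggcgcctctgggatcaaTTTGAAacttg
Kif20b (chr19:34922288-34922387, plus strand): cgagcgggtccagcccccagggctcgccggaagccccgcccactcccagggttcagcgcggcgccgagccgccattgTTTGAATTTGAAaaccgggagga
Kif18b (chr11:102925095-102925194, minus strand): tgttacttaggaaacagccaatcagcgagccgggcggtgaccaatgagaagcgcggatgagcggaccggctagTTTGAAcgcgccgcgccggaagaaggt
Kifc1 (chr17:33890604-33890703, minus strand): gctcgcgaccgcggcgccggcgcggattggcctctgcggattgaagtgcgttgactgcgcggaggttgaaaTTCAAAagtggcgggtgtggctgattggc
Kif5c (chr2:49619216-49619315, plus strand): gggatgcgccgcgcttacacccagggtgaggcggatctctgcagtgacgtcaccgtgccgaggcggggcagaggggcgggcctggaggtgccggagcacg
Kif2a (chr13:107022326-107022425, minus strand): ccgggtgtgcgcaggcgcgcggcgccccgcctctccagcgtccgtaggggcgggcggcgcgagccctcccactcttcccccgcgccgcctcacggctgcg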

How the data were processed

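The deposited values are intensity on a linear scale for 45101 probe sets, 1 column per array; RMA is named in the submitters' processing notes without a version or settings. Groups were taken from the sample titles. Log2 was taken, and the 64 control probe sets were left out of the tests. Of the rest, 34945 probe sets were listed with 1 gene (34741 matched to RefSeq by gene ID), 932 with several and 9160 with none. Each gene was read from the probe set listed with that gene alone that had the highest mean over all 10 arrays. Probe sets above the array median on at least 3 arrays (23737) entered 1 fit (limma 3.58.1, R 4.3.3) with a mean for each group and default moderation, and Benjamini-Hochberg adjusted p-values are over all of them. The fit was tested on simulated data. Folds are 2 to the power of the log2 difference.

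The motor genes and gene lists were chosen with earlier results of these data known. Values on every array are given for genes called in any comparison, for genes whose SCC and cytoplast arrays did not overlap and that were above background on every array of the higher group, and for a chosen set of main motors where above background on 3 arrays or more. Partners are named where called; other genes were named after their values were seen. Alternatives were cyclic loess, quantile normalization, other filters, only the groups compared, limma-trend, the hybridisation control level as a covariate, the replicate number as a block, each array left out, and the second probe set of a gene. The labels do not say that equal replicate numbers share oocytes, so the numbers were not taken to pair the arrays. Residuals of same-numbered arrays correlated at -0.304 to 0.614 over 8 pairs. Arrays with different numbers were not compared, so these values cannot show whether the arrays are paired.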

Additional observations from a re-analysis of the deposited data

Results flagged for a closer look

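Kif18a had 1 cytoplast array far from the others: replicate 3 was at 708.6, and the other cytoplast arrays lay between 495.6 and 518.5. The gap was 0.873 of the group's range on the log2 scale. Such a gap turns up by chance in about 1 of 20 groups, and 14 genes were looked at.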

How the results depend on the processing

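Of the 47 motor genes, 2 were called between SCC and cytoplast. After cyclic loess or quantile normalization the count was also 2, but the genes were Kif5c (higher) and Kif18b (lower). The count was 10 with the hybridisation control level as a covariate and 7 with the replicate number as a block, and 1 to 5 when each array was left out in turn: 1 (Kif5c) without SCC replicate 2 or 3 or cytoplast replicate 1 or 2, 4 without cytoplast replicate 3 or MII oocyte replicate 3, and 5 without SCC replicate 1. Between SCC and MII oocyte the count of 0 became 1 (Kif5c) with that covariate, 1 (Kif5c) with the replicate block, and 0 to 3 when arrays were left out (3 without MII oocyte replicate 3). Between cytoplast and MII oocyte it was 0 in every setting run. The cause was not tested. The second probe set, tested for 20 genes, gave 2 calls, Dynll1 and Kif22, in place of Kif5c and Kif2a. Signs turned for Kif22 (-0.15 after cyclic loess, -0.16 after quantile normalization), Kif4 (-0.058 after quantile normalization), Dynll2 (from -0.14 to 0.02 when arrays were left out, and 0.59 for its second probe set), Kif11 (-0.13, second probe set) and Kif1b (-0.16, second probe set, though 2 dimmer ones were higher in the SCC), and none of these values passed. Below background, as for 29 of the 54 genes, a difference between groups was poorly measurable.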
